A study of Mus musculus with 12 samples.

Results

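The genes described here are the desmosomal cadherins of mouse chromosome 18 and the transthyretin gene that lies beside them: Dsc1, Dsc2, Dsc3, Dsg1b, Dsg1c, Dsg2, Dsg3, Dsg4 and Ttr. They were chosen by the name of the probes, and for their place at the boundary of amplified DNA in earlier results of the same arrays, so their ratios in the tumors are given as a description and were not tested for being gained or lost. The 9 genes were measured by 19 of the 42404 probes of the array, out of 20614 genes that could be compared. Copy number was measured by array-based comparative genomic hybridization (aCGH), in which tumor DNA and reference DNA compete for the same probes. Each of 12 liver tumors had 1 array, on which the reference was non-tumor liver taken away from the tumor in that mouse. Tumor DNA carried the red dye (Cy5) and liver DNA the green dye (Cy3), with no dye swap.

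All mice, and so both DNA samples of each array, carried the Mdr2/KO genotype on the FVB strain, which lacks the phospholipid transporter of bile and develops chronic liver inflammation and liver cancer. The post-PHx tumors (PHx1M to PHx6F) came from 6 mice that had undergone 70% partial hepatectomy (PHx) at the age of 3 or 6 months and were 9 months old, 4 males and 2 females. The spontaneous tumors (Spon1M to Spon6F) came from 6 untreated mice, 2 males of 14 months and 4 females of 13 months, so age differed together with treatment. The knockout is in the whole animal, and each tumor was 1 sample of 1 mouse. The arrays thus compare tumor with liver within a mouse, and not knockout with wild type.

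Desmosomes are the spot-like junctions that tie the intermediate filaments of neighbouring epithelial cells together. Their adhesive proteins are of the cadherin superfamily and come as desmocollins (Dsc) and desmogleins (Dsg), whose genes lie side by side in 1 cluster. Hepatocytes, like other simple epithelia, use mainly Dsc2 and Dsg2, and the other members belong mostly to the epidermis and the hair follicle. Ttr codes for transthyretin, a protein that hepatocytes secrete and that carries thyroxine and, with retinol-binding protein, retinol. The arrays measured DNA, and neither the RNA nor the protein of these genes.

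In the files the genes follow each other as Dsc3, Dsc2, Dsc1, Dsg1c, Dsg1b, Dsg4, Dsg3, Dsg2 and Ttr, from 20104301 to 20816931 of chromosome 18 on mouse build mm8, a stretch of 712.6 kb. Dsc3 and Dsc2 had 3 probes each, Ttr had 1 and the other genes had 2. RefSeq (GRCm38.p6) lists the same order and a further desmoglein, Dsg1a, between Dsg1c and Dsg1b, for which no probe was named. Whether a probe lay in an exon or an intron was not determined, since no annotation of mm8 was used. All 252 spots of these genes on the 12 arrays were well above background in both channels and none was saturated, and 5 of the 252 had been marked as outliers by the scanner software and were left out. This left 224 of 228 values of a probe in a tumor.

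The cluster lies on the far side of a blank stretch of the array. No probe was placed between 17044153 and 20104301, a stretch of 3.06 Mb and the longest without a probe on chromosome 18, where the median spacing of the 1212 probes was 29.7 kb. Its near side holds Cdh2, which codes for N-cadherin, a classical cadherin of hepatocytes. Among protein-coding genes of the RefSeq list none lies between Cdh2 and Dsc3. The level of the DNA can therefore change anywhere within the 3.06 Mb without any probe showing where.

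The mean log2 ratio of the probes of the cluster, centred on the median of the autosomal probes of each array, gave 1 value for each tumor. Of the post-PHx tumors, PHx1M stood at 0.20, PHx2F at -0.08, PHx3M at -0.15, PHx4M at 0.20, PHx5M at 0.12 and PHx6F at -0.18. Of the spontaneous tumors, Spon1M stood at 0.16, Spon2M at 0.21, Spon3F at -0.10, Spon4F at 0.30, Spon5F at -0.18 and Spon6F at -0.38. As many tumors of one group as of the other, 3 of 6 post-PHx and 3 of 6 spontaneous, thus lay above 0 and the others below, and the groups overlapped over the whole range of the post-PHx tumors. As amounts of DNA relative to the matched liver, the values ran from 0.767-fold in Spon6F to 1.23-fold in Spon4F. The SD over the 17 to 19 probes of a tumor was 0.11 to 0.26, which is a spread between probes of 1 array and not between samples.

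The filter of the study for an aberration was a mean log2 ratio of 0.4 in either direction. The study also set a least number of probes per region and an aberration detection method, and here the ratio alone was applied. The mean of the cluster was past 0.4 in either direction in 0 of 12 tumors, or in 1 of 12 after normexp correction of the background (Spon4F at 0.43). Closest to the filter stood Spon6F at -0.38 and Spon4F at 0.30. Of 108 pairs of a gene and a tumor, 3 were at or above 0.4 and 3 at or below -0.4, where 3.75% and 3.1% of all such pairs on the array were. Dsg1b reached 0.46 in PHx1M, where 2.73% of all genes were at or above 0.4, and 0.50 in Spon2M, where 9.81% were. The value in PHx1M rests on 1 probe, since the other had none there. Dsc1 reached 0.47 in Spon4F, against 3.21% of all genes. Dsg1c, Dsg3 and Dsg2 were at or below -0.4 in Spon6F, at -0.42, -0.47 and -0.45, where 1.9% of all genes were. These 3 genes share the long piece of lowered DNA described below, so they are not separate events. With each probe's mean deviation in the other tumors subtracted, not all of these probes were past the filter. The Dsg1b probe read 0.37 in PHx1M, and the Dsg1b probes 0.32 and 0.51 in Spon2M. The Dsc1 probes read 0.38 and 0.41 in Spon4F. In Spon6F the probes read -0.57 and -0.31 for Dsg1c, -0.24 and -0.49 for Dsg3, and -0.38 and -0.49 for Dsg2.

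**Figure D1:**
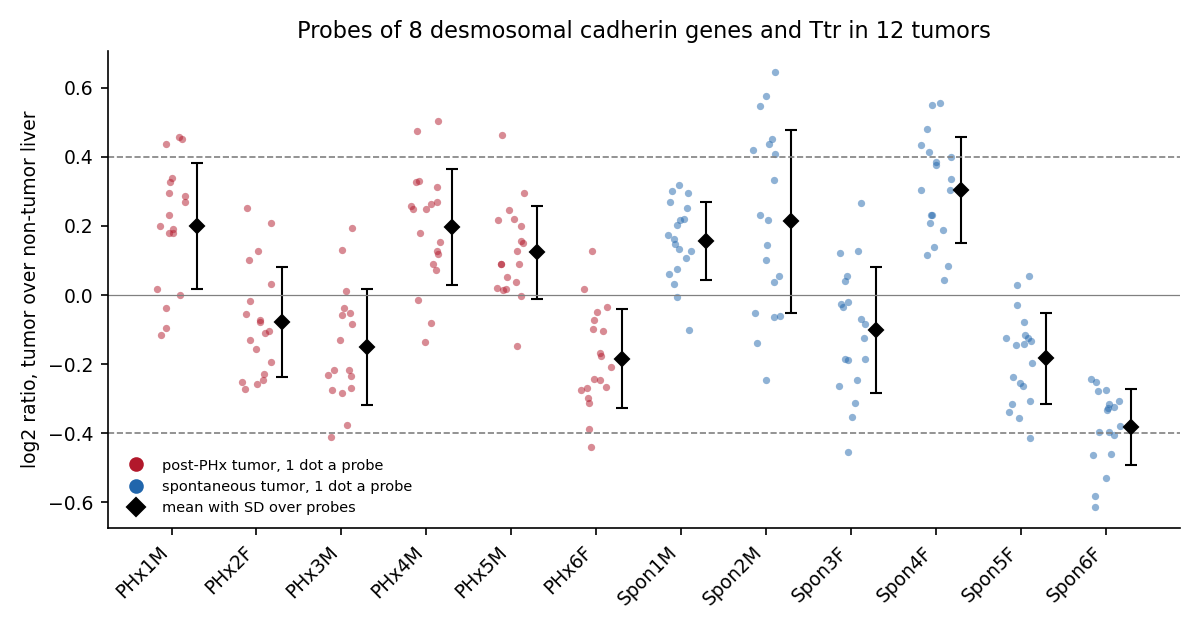
Log2 ratio of tumor over non-tumor liver (y axis) for each of the 19 probes in each of the 12 tumors (x axis). Dots are probes, diamonds the mean with the SD over probes, and dashed lines the filter of 0.4 in either direction, and no diamond is past a dashed line, with Spon6F at -0.38 the closest (after normexp correction, not plotted, Spon4F is past it at 0.43).

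The tumors stood in an order that ran from Spon4F, Spon2M, PHx1M, PHx4M, Spon1M and PHx5M, all above 0, to PHx2F, Spon3F, PHx3M, Spon5F, PHx6F and Spon6F. Compared on the probes that both tumors had, 2 of the 11 neighbouring pairs in this order differed by more than 2 standard errors over probes. PHx5M was above PHx2F by 0.20 (SE 0.04, 19 probes), and PHx6F above Spon6F by 0.20 (SE 0.04, 18 probes). The other 9 pairs did not differ beyond that error. Each tumor was 1 array, so this error is over probes and not over samples, and pairs that were not neighbours were not compared.

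The tumors differed in where this level came from. On the near side of the blank stretch, the mean over the 163 probes before 15 Mb was at least 0.4 in 5 tumors. It was 0.45 in PHx1M, 1.80 in PHx2F, 0.80 in PHx3M and 1.02 in PHx6F, and 0.50 in Spon3F. In these same 5 tumors the cluster stood between -0.18 and 0.20, and it was below 0 in 4 of them. In each of the 5 tumors the cluster thus stood lower than the DNA before 15 Mb. This count depends on the window, since in Spon3F, Spon6F and PHx4M raised DNA covered only part of it. In PHx4M the piece up to 7958161 stood at 0.29 and the next one at -0.08. In Spon6F the pieces up to 10818056 stood at 0.74, 0.45 and 0.77, but the mean before 15 Mb was 0.30, and the cluster, at -0.38, stood lower there too. In Spon3F the pieces up to 6086688 were raised, and the next one stood at -0.11.

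The last 10 probes before the blank stretch gave the level next to the cluster. In PHx3M they stood at 0.78 and the cluster at -0.15, a drop of 0.93 across the stretch. In PHx6F they stood at 0.35 and the cluster at -0.18, in PHx2F at 0.26 and -0.08, and in PHx1M at 0.41 and 0.20. In the other 8 tumors the cluster was within 0.1 of the level before the stretch. Each of the 4 tumors with a drop of more than 0.2 was a post-PHx tumor, and the window of 10 probes was chosen after the planned window of 2 Mb had turned out to hold none.

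**Figure D2:**
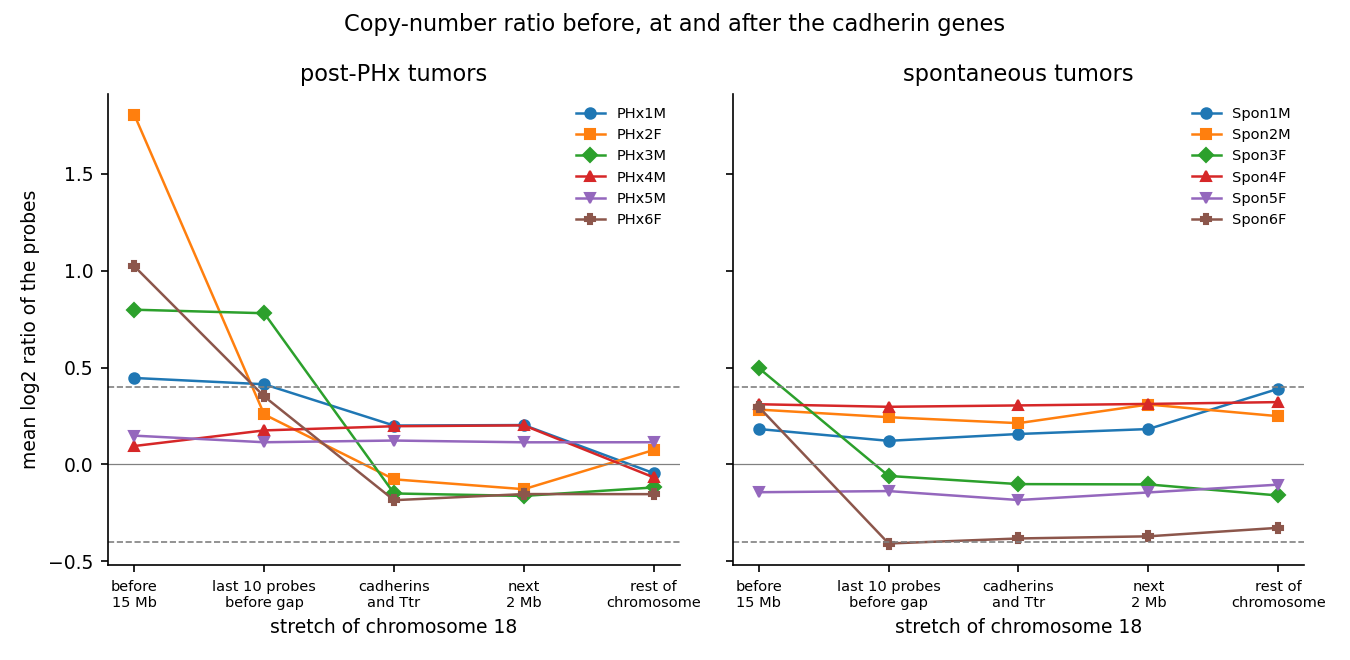
Mean log2 ratio (y axis) of 5 consecutive stretches of chromosome 18 (x axis) with 1 line for each tumor, post-PHx tumors on the left and spontaneous ones on the right. PHx3M falls from 0.78 to -0.15 between the last 10 probes before the blank stretch and the cluster, while PHx1M goes from 0.41 to 0.20 and PHx4M from 0.18 to 0.20.

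The chromosome was divided into pieces of equal level to see with which DNA the cluster moved. The piece with the cluster began with the first Dsc3 probe in 3 tumors, PHx1M, PHx3M and PHx6F. It spanned the blank stretch in 8 tumors. In PHx1M this start depended on the processing, since the piece began before the blank stretch, at 16742443 after normexp correction of the background and at 16843479 with outlier spots kept. In PHx3M the DNA up to 16960911 stood at 0.80 and the piece from 20104301 to the end of the chromosome at -0.12. In PHx6F the near piece, from 14797764 to 17044153, stood at 0.33, after a piece at 1.45 up to 14768151. The piece from 20104301 to the end stood at -0.15. In both tumors the desmosomal cadherins were thus part of the level of the remaining chromosome, and Cdh2, at 0.80 in PHx3M and 0.25 in PHx6F, was on the raised side.

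PHx2F was the tumor in which a step fell among the members, but a larger one lay before the blank stretch. There the level went from 1.58 in the piece up to 15756739 to 0.23 in the next. A short piece of 13 probes at 0.23 ran from 15975379 to 20114564 and took in 2 of the 3 Dsc3 probes, and the piece with the other 17 member probes stood at -0.11 up to 25821615. The Dsc3 probes read 0.25, 0.10 and -0.23 in this tumor. In the 11 other tumors the same probes deviated from their tumor's mean by 0.14, 0.02 and -0.17 on average, in the same order, so these probes read high or low in other tumors too. With that subtracted, they read 0.11, 0.08 and -0.06 in PHx2F. After normexp correction the step among the members moved to 17044094, on the other side of the blank stretch, so its place inside Dsc3 depended on the processing.

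PHx1M and PHx4M shared a raised stretch with an end of its own. In PHx1M the DNA up to 17044153 stood at 0.45, the piece from 20104301 to 22058099 at 0.25 (51 probes), and the DNA from 22316278 to the end at -0.05. In PHx4M a piece from 14625688 to 21942776 stood at 0.25 (87 probes) and the DNA from 21954190 to 33104450 at -0.04. The last raised probes of the tumors lay 115.3 kb apart, 1954 and 1838 kb from the first Dsc3 probe. All members were inside the raised piece in both tumors, and the cluster stood above the rest of the chromosome by 0.25 in PHx1M and 0.26 in PHx4M. After normexp correction the piece of both tumors ended with the same probe, at 21868617.

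The stretch of PHx1M, 20104301 to 22058099, was also set against the stretch of the same length after it in every tumor, a comparison chosen after seeing that tumor. It was higher by 0.35 in PHx1M and by 0.36 in PHx4M. In the other 10 tumors the difference ran from -0.03 in Spon2M to 0.08 in Spon1M. The piece of PHx1M set the bounds, so its own value is a description. The stretch itself stood at 0.28 in Spon2M and 0.32 in Spon4F, against 0.25 in both PHx1M and PHx4M. Its level was thus not particular to this pair, while the difference after it was -0.03 in Spon2M and 0.04 in Spon4F. The arrays of PHx1M and PHx4M both stood on slide 1, with 2 further post-PHx arrays, PHx2F with a difference of 0.05 and PHx3M of 0.00.

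**Figure D3:**
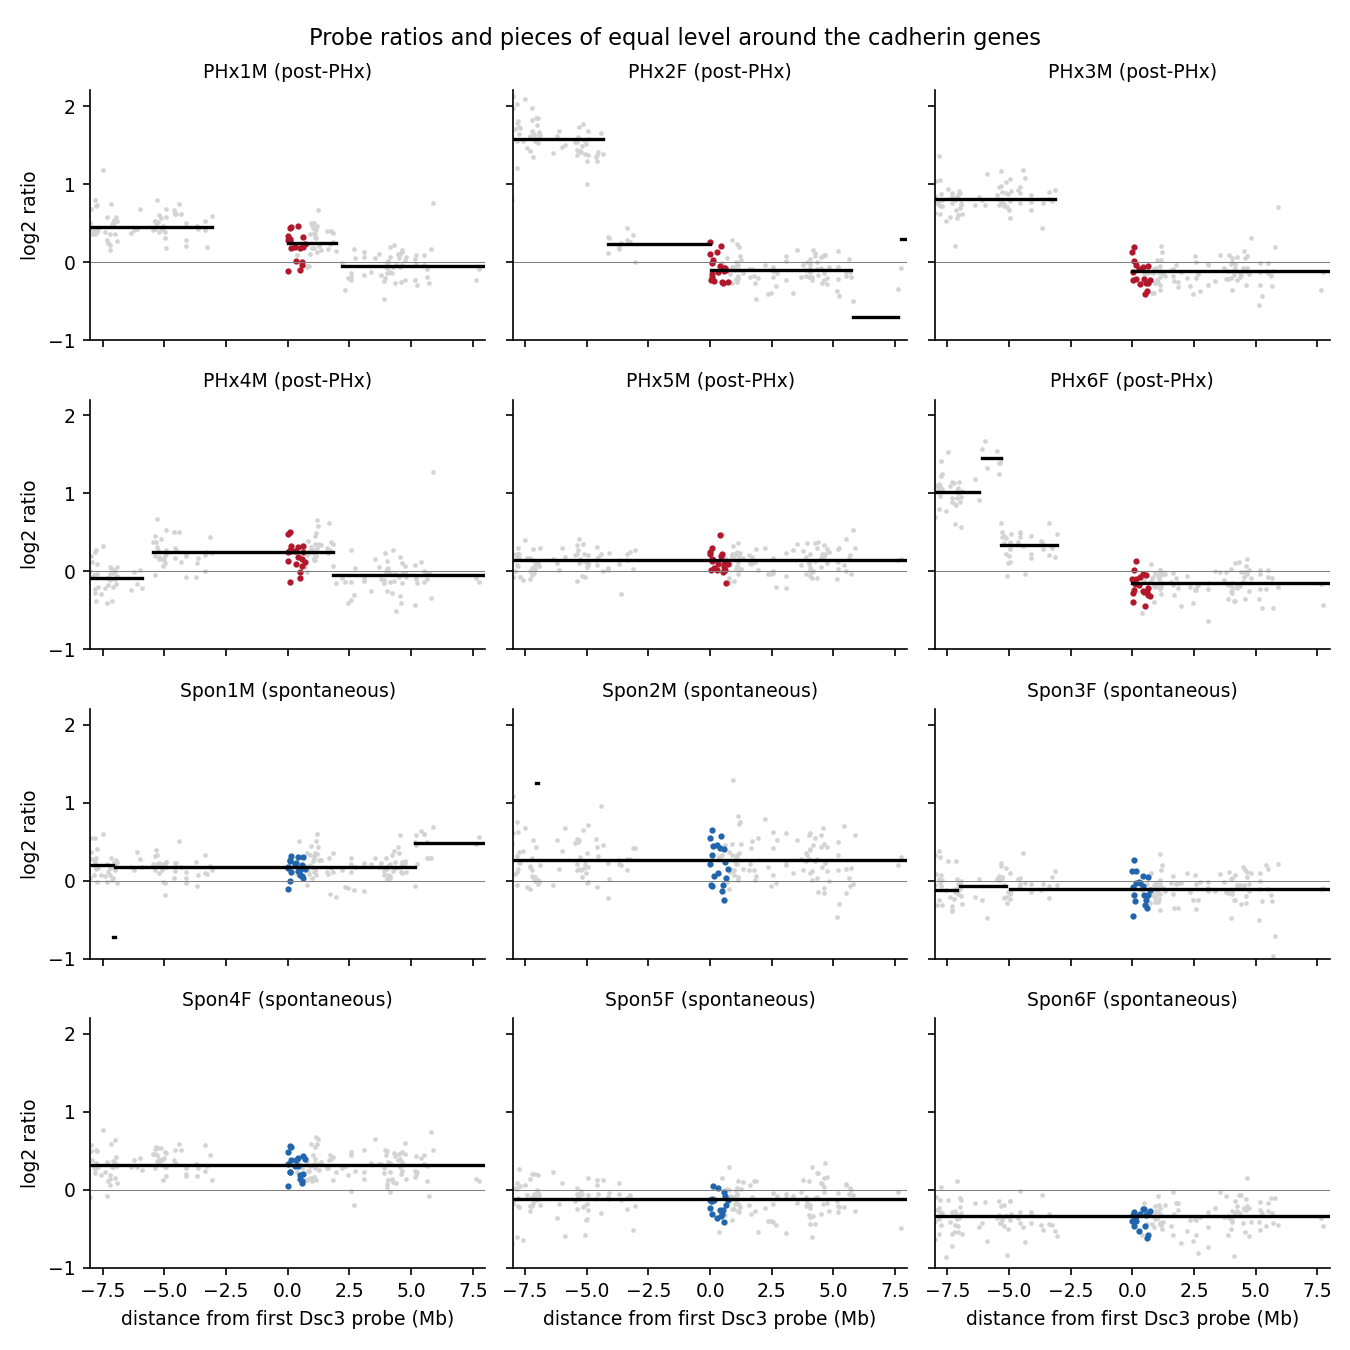
Log2 ratios of probes (y axis, shown from -1 to 2.2) within 8 Mb on either side of the first Dsc3 probe (x axis, distance in Mb) in each tumor, with member probes in colour, other probes in grey and black lines for pieces of equal level. No probe lies in the 3.06 Mb before 0, lines that cross it join probes on either side, and in PHx1M and PHx4M the raised piece ends 1954 and 1838 kb after the first Dsc3 probe.

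In the other tumors the cluster followed a long piece. In PHx5M it was part of a piece at 0.14 from 3254025 to 31724499. Spon1M had a piece at 0.18 from 13117918 to 25244696 and Spon2M one at 0.26 from 13127489 to 38062016. Spon3F had a piece at -0.11 from 15129377 to 38063035. In Spon2M and Spon3F these bounds were set by short pieces of 3 probes. The short pieces stood at 1.26 and 1.36 in Spon2M, and the longer ones beyond them at 0.26 and 0.23. In Spon3F the short pieces stood at -1.18 and -1.01, and the longer ones beyond them at -0.06 and -0.10. In both tumors the cluster thus shared the level of most of the chromosome. With other settings the piece of Spon2M began as early as 3254025 and ended as late as 57499948, and that of Spon3F ended between 25735261 and 57479685. The raised DNA at the start of chromosome 18 in Spon3F ended well before the cluster, whose level it did not share.

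Spon4F, Spon5F and Spon6F likewise carried the cluster with most or all of the chromosome. The whole of chromosome 18 was 1 piece at 0.32 in Spon4F and 1 piece at -0.11 in Spon5F. In Spon6F the DNA from 10848756 to the end stood at -0.33, and the cluster at -0.38. Of the 12 tumors, 9 had the same sign in the cluster and in the rest of the chromosome beyond the next 2 Mb, and the exceptions were PHx1M, PHx2F and PHx4M. Some arrays stood apart, since chromosome 18 was divided into 35 pieces in Spon1M and 31 in Spon3F against 1 to 15 in the other tumors. Without Spon1M and Spon3F, the cluster mean of the post-PHx tumors minus that of the spontaneous ones was 0.03, against 0.02 with them. Without Spon2M as well, which had the highest noise between neighbouring probes of the chromosome (0.25), it was 0.11.

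The desmocollins stand first in the cluster. Dsc3, a desmocollin of the basal layers of stratified epithelia, ran from -0.25 to 0.28 in the post-PHx tumors (median 0.10) and from -0.37 to 0.29 in the spontaneous ones (median -0.03). Dsc2, the desmocollin of simple epithelia and heart, ran from -0.13 to 0.33 (median 0.15) and from -0.37 to 0.34 (median 0.06). Dsc1, which is found in the upper epidermis, ran from -0.13 to 0.32 (median 0.05) and from -0.37 to 0.47 (median 0.13). The groups overlapped for each desmocollin, and the lowest spontaneous value of all 3 belonged to Spon6F and the highest to Spon4F.

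The desmogleins followed. Dsg1c, one of several mouse copies of the epidermal desmoglein Dsg1, ran from -0.18 to 0.18 in the post-PHx tumors (median 0.03) and from -0.42 to 0.34 in the spontaneous ones (median 0.10). Dsg1b, another copy, ran from -0.14 to 0.46 (median 0.16) and from -0.30 to 0.50 (median 0.10). Since these copies resemble each other, a probe of one may also have bound DNA of another, which was not checked. Dsg4, the desmoglein of the hair follicle, ran from -0.35 to 0.11 (median -0.16) and from -0.36 to 0.16 (median -0.17).

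Dsg3, the desmoglein of basal epidermis and mucosa, ran from -0.32 to 0.11 in the post-PHx tumors (median -0.06) and from -0.47 to 0.13 in the spontaneous ones (median -0.07). Dsg2, the desmoglein of simple epithelia, ran from -0.25 to 0.29 (median -0.08) and from -0.45 to 0.32 (median 0.03). Ttr, with its single probe, ran from -0.31 to 0.23 (median -0.07) and from -0.27 to 0.40 (median 0.01). The groups overlapped for each of these genes as well. Dsg4 was below 0 in 8 of 12 tumors and Dsc1 above 0 in 8 of 12, so genes of the cluster differed in sign within some tumors.

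Part of that difference between genes repeated from tumor to tumor. Relative to the mean of the cluster in the same tumor, 1 Dsc1 probe (20232542) was higher in 12 of 12 tumors, by 0.17 on average, and 1 Dsg4 probe (20614648) was lower in 12 of 12, by 0.19 on the log2 scale. The highest mean deviation, 0.19, was that of the Dsc2 probe at 20184421, above the mean in 10 of 12 tumors. Among the 66 pairs of tumors, the deviations of the probes correlated with a median Pearson r of 0.49 (from -0.27 to 0.95, over the probes both had), and 60 pairs were above 0. These correlations are across probes, which are not independent replicates, and the reference of each array was a different mouse. The mean deviation of a probe correlated with its mean green signal with an r of -0.32 over the 19 probes.

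The same held for the families. The 8 desmocollin probes were higher than the 10 desmoglein probes in 11 of 12 tumors, by 0.07 ± 0.05 (SD, n = 12), and Spon1M was the exception at -0.02. With the offset of each probe in the other tumors subtracted, the SD over probes fell in 10 of 12 tumors, for example from 0.17 to 0.09 in PHx3M, and rose from 0.13 to 0.17 in Spon5F and from 0.11 to 0.15 in Spon6F. One Dsc2 probe was spotted 3 times on each array, and the SD of its spots was 0.03 to 0.25 (median 0.09).

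**Figure D4:**
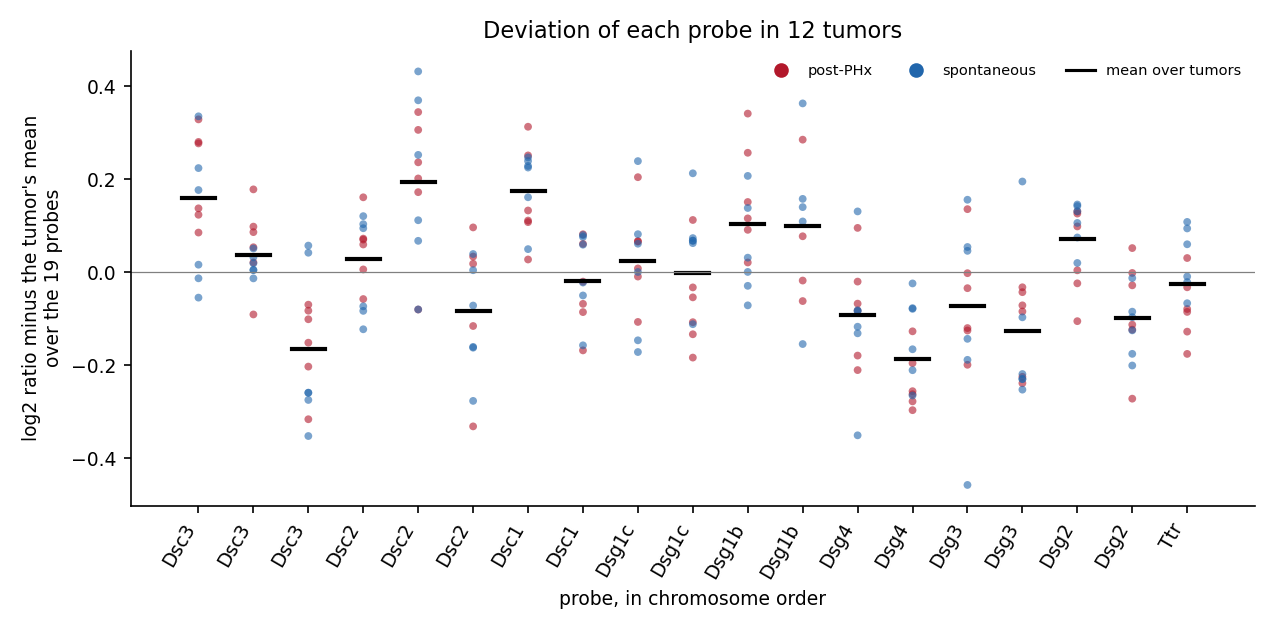
Log2 ratio of each probe minus the mean of the cluster in the same tumor (y axis) for the 19 probes in chromosome order (x axis), with 1 dot for each of up to 12 tumors and a black line for the mean. The Dsc1 probe at 0.17 lies above 0 and the Dsg4 probe at -0.19 below 0 in every tumor of both groups.

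The design compares post-PHx with spontaneous tumors, and the question is whether tumors that grew after hepatectomy carry other copy numbers than those that arose without it. For the cluster the answer in values was a mean of 0.02 ± 0.18 (SD, n = 6) in the post-PHx and 0.00 ± 0.27 (SD, n = 6) in the spontaneous tumors. For the genes it was tested with limma over all 20614 genes, with Benjamini-Hochberg adjustment. None of the 9 members was called, and 0 of the 20614 genes were (0%), while 865 genes (4.2%) had an unadjusted p under 0.05 and none of them was a member.

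The estimated differences of the members, post-PHx minus spontaneous, ran from -0.09 for Ttr to 0.07 for Dsc3, and 5 were above 0 and 4 below. Their median was 0.00, and that of all genes was 0.01. For Dsc3 the difference was 0.07 (SE 0.12, 95% interval -0.20 to 0.33, adjusted p = 0.987 by limma). For Dsg2 it was 0.00 (SE 0.13, interval -0.28 to 0.29, adjusted p = 0.999), and for Ttr -0.09 (SE 0.13, interval -0.36 to 0.19, adjusted p = 0.987). The intervals of all members lay between -0.36 and 0.38, so a difference of 0.4 between the group means lay outside them. The filter of 0.4 applies to single tumors, so the intervals do not show whether some tumors of a group were past it.

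**Figure D5:**
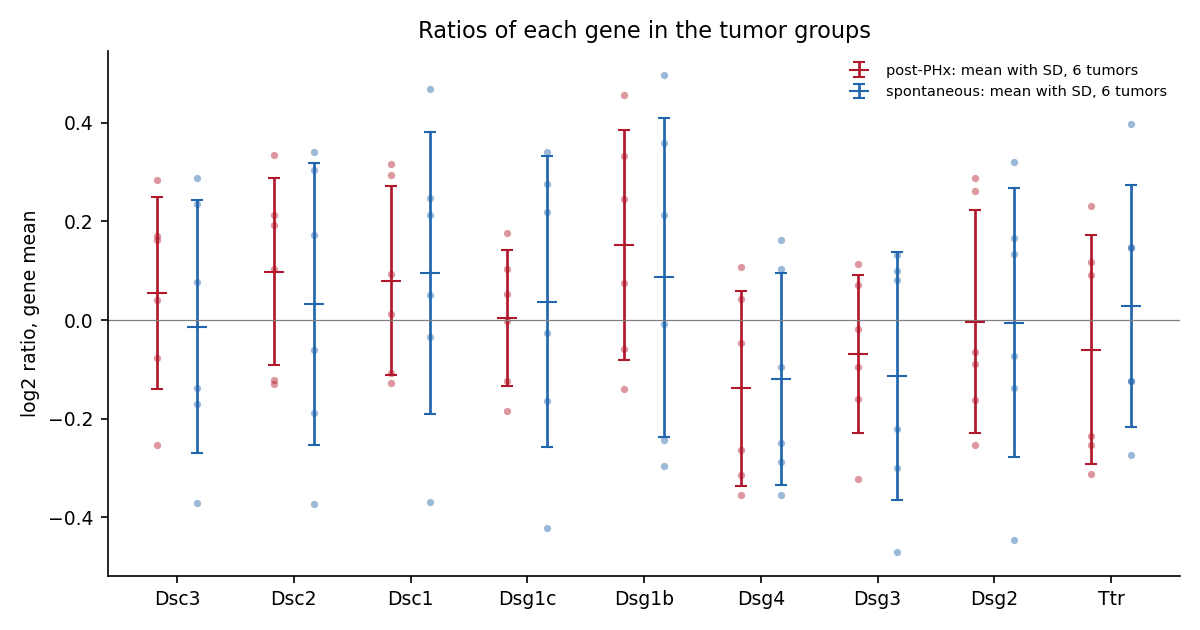
Log2 ratio of each gene, as the mean of its probes (y axis), in post-PHx and spontaneous tumors (x axis, genes in chromosome order), with 1 dot for each tumor and bars for the mean with the SD of 6 tumors. The bars of both groups overlap for all 9 genes, and the largest difference of means is that of Ttr, at -0.09.

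The slides and the sexes were spread unevenly over the groups. Slide 2 was the single slide with both groups, and there the cluster mean was 0.25 higher in 2 post-PHx tumors (0.12 and -0.18) than in 2 spontaneous ones (-0.18 and -0.38). The other slides each held 1 group. Among males, 5 of 6 tumors were above 0 (0.12 ± 0.14, SD, n = 6), with PHx3M the exception, and among females 5 of 6 were below 0 (-0.10 ± 0.23, SD, n = 6), with Spon4F the exception. Within males the groups differed by -0.09 and within females by -0.04. In the limma fit with sex as a term, the members were 0.20 to 0.34 higher in males, with adjusted p from 0.549 to 0.608, and no gene of the array was called (0%). At an unadjusted p under 0.05 stood 2 of the 9 members, and 9.09% of all genes did.

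The DNA beside the cluster was measured by 17 further named genes, 2 within it and 15 in the 2 Mb after it, of which 8 were found in the RefSeq table. Just inside the bounds, the transcripts AK029294 and AK090335 lay between the members, and AK029294 ran from -0.57 in Spon6F to 0.30 in Spon2M. Just outside, B4galt6, a galactosyltransferase gene, ran from -0.38 in Spon6F to 0.24 in Spon4F. It was the 1 of 12 genes up to the end of the raised piece of PHx1M that was not above 0 there, at -0.06.

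In PHx1M these 12 genes had a median of 0.31 and in PHx4M of 0.26, with 11 of 12 above 0 in each. The median was as high in Spon2M (0.31) and Spon4F (0.33), with 12 of 12 above 0 in each. They include the ubiquitin ligase genes Rnf125 (0.31 in PHx1M and 0.26 in PHx4M) and Rnf138 (0.35 and 0.16), the meprin gene Mep1b (0.32 and 0.27), and Klhl14 (0.17 and 0.42). Garem1, named Gm944 in the files, stood at 0.32 in PHx1M and 0.44 in PHx4M, and at 0.49 in Spon2M and 0.44 in Spon4F. Ccdc178, named 4921528I01Rik, stood at 0.20 in PHx1M and -0.05 in PHx4M, where the raised piece had ended. The 3 genes beyond it were below 0 in both tumors, with medians of -0.19 and -0.14, while their medians were 0.28 in Spon2M and 0.34 in Spon4F. None of the 17 genes was called between the groups (lowest adjusted p = 0.987 by limma).

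The partners of these proteins are encoded on other chromosomes. Of 12 partners of the desmosomal cadherins, 10 had probes, among them the plakoglobin gene Jup, the plakophilin genes Pkp1 to Pkp4, and the plakin genes Ppl and Evpl, and none was called. Their median difference between the groups was 0.03, against 0.01 for all genes. In 5 of 120 pairs of a gene and a tumor they were past the filter (4.17%), against 6.85% over all genes. Of these 5 pairs, 3 belonged to Evpl, at -0.73 in Spon1M, 0.45 in Spon2M and -1.19 in Spon3F. The other pairs were Pkp1 at 0.42 in PHx4M and Jup at -0.45 in Spon3F. The 3 arrays with Evpl past the filter stood on slide 3, with that of Spon4F, where Evpl was at -0.11. On these 3 arrays a short piece of 4 probes on chromosome 18, from 61081194 to 61132944, had the same signs. It stood at -0.96 in Spon1M, 1.42 in Spon2M and -1.85 in Spon3F. Whether the Evpl values reflect the arrays or the tumors was not tested.

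Of 7 classical cadherins and catenins, all had probes and none was called. Cdh2 had the largest difference among them, with 0.32 ± 0.24 (SD, n = 6) in the post-PHx and -0.02 ± 0.27 (SD, n = 6) in the spontaneous tumors. The difference was 0.34 (interval 0.05 to 0.63), with an unadjusted p of 0.024 and an adjusted p of 0.987 by limma. Ctnna1, the alpha-catenin gene that also lies on chromosome 18, reached 0.80 in PHx2F, 0.64 in Spon1M and 0.40 in Spon2M, and stood at -0.44 in Spon6F. Cdh1, the E-cadherin gene of hepatocytes, stayed between -0.03 and 0.35, and Ctnnb1, the beta-catenin gene, between -0.34 and 0.21.

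For Ttr, genes with a part in carrying thyroxine and retinol were set beside it. Of 7 such genes 5 had probes and none was called. Rbp4, the partner of transthyretin in blood, had 1 probe. It stood at 0.05 ± 0.05 (SD, n = 6) in the post-PHx and -0.16 ± 0.22 (SD, n = 6) in the spontaneous tumors (unadjusted p = 0.031, adjusted p = 0.987 by limma). Its lowest values were in Spon2M (-0.48) and Spon3F (-0.38), where 8.27% and 8.82% of all genes were at or below -0.4. Dio1, a deiodinase gene, was past the filter in 3 tumors, at -0.47 in PHx1M, -0.42 in PHx2F and -0.41 in PHx5M.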

How the data were processed

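Each array (Agilent 4x44K mouse CGH) was read with Agilent Feature Extraction 10.5.1.1. The authors deposited its output: signal intensities of both channels, and for each spot the log10 ratio of the processed red over green intensity, after background subtraction and dye normalization per the file headers. On every array, 99.7% or more of the deposited log10 ratios could be recomputed from the deposited intensities to within 0.001. Positions are those of mm8, and 169 of 43020 spots per array had none. The authors' own aberration calls were not used.

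Ratios were converted to log2, and outlier-flagged spots, 108 to 1218 an array, were dropped. Spots were averaged by probe and probes by gene, with the autosomal median of each array set to 0. The comparison of the groups used limma 3.58.1 and R 4.3.3 (lmFit, eBayes, Benjamini-Hochberg adjustment, threshold 0.05) over genes with values in at least 3 tumors of each group. Pieces of equal level minimised squared error with a penalty of 3 times ln(n) times the noise variance and at least 3 probes. Both steps were tested on simulated data. The other steps used Python 3.11.15 (numpy 2.4.6, pandas 2.3.3, scipy 1.17.1, matplotlib 3.10.9). Tumors are named as in the labels, and groups, treatment and sex come from them, while ages come from the study.

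The members and gene lists were chosen with earlier results of these data known. The named genes are the members, the genes within 2 Mb, the partner lists and the 3 genes of other chromosomes whose ratios were most alike to the cluster mean over the 12 tumors. The alternatives were normexp background correction (offset 50), no centring, centring on the mode, probes well above background, outlier spots kept, other summaries of the members, filters of 0.25 and 0.6, other penalties and shortest pieces, single probes, bins of 1 Mb, a term for slide, for sex or for tumor number, and each tumor left out. Leaving out several tumors at once, levels relative to the rest of the chromosome, probe offsets and the windows beside the cluster were added after seeing the data. The tumor numbers 1 to 6 occur in both groups without a stated pairing. Precision is limited by the number of arrays and the spread between probes. The median signal of the member probes was 7.96 to 32.5 times the background in green and 4.31 to 14.9 times in red. The values of 1 gene of the lists are not reported here. No sequence is printed.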

Additional observations from a re-analysis of the deposited data

How the results depend on the processing

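The sign of the cluster mean was kept in all 12 tumors under 8 alternatives (normexp, no or other centring, probes above background, outlier spots kept, median over the probes, without Ttr, mean of the gene means), and no tumor's mean moved by more than the SD of its group. The mean was past the filter in 1 tumor after normexp correction (Spon4F at 0.43) and in 2 tumors with a filter of 0.25, against 0 of 12. The difference between the groups, 0.02 as reported, was 0.25 on the slide with both groups, -0.07 without PHx1M and PHx4M, 0.11 relative to the rest of the chromosome, and from -0.06 to 0.08 with each tumor left out (below 0 without PHx1M, PHx4M, PHx5M, Spon3F, Spon5F or Spon6F). It was -0.01 after normexp correction and with the median over the probes, so its sign was not stable. Paired by tumor number (replicate block) it was 0.02, and limma with this block called 0 genes (864 at an unadjusted p under 0.05). The deviations of same-numbered tumors correlated above 0.1 in 1 of 6 pairs (-0.03 to 0.45), and 2 of 12 tumors correlated best with their own number, so the numbers were not read as pairs. No gene was called under any of 24 alternatives of the limma fit, leaving out each tumor included (0 in each). The mean of the piece with the cluster moved by less than the SD of its group in all 72 refits, while its bounds were kept in 6 of 6 refits in PHx3M, PHx6F, Spon4F and Spon5F, in 5 of 6 in PHx4M and Spon6F, in 4 of 6 in PHx1M, PHx5M and Spon1M, and in 2 of 6 in PHx2F, Spon2M and Spon3F. Green signal over background was higher on the spontaneous than on the post-PHx arrays (medians 20.9 and 10.9), and its part in the results was not tested.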

Other observations

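Among 19234 genes of other chromosomes with a value in every tumor, the 3 whose ratios were most alike to the mean of the cadherin cluster were Olfr17 on chromosome 7 (Pearson r = 0.92 over 12 tumors), Olfr24 on chromosome 9 (r = 0.86) and Rdh8 on chromosome 9 (r = 0.86). They were picked as the highest of many and were not tested. Olfr17 and Olfr24 are odorant receptor genes, a large family with similar copies, and Rdh8 codes for a retinol dehydrogenase. Olfr17 ran from -0.01 in Spon5F to 0.32 in Spon2M. It was above 0 in PHx2F (0.07), PHx3M (0.11), PHx6F (0.05), Spon3F (0.06) and Spon6F (0.01), where the cluster was below 0. Rdh8 ran from -0.31 in Spon6F to 0.19 in Spon1M.

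On chromosome 18 itself, the likeness to the cluster changed across the blank stretch. The 17 genes from 20 to 23 Mb had a median r of 0.89 over the 12 tumors, the 7 genes from 15 to 18 Mb one of 0.20, and the 65 genes before 15 Mb one of -0.30. Further along, the median was 0.59 from 23 to 35 Mb, 0.60 from 35 to 70 Mb and 0.73 from 70 Mb on. All these values share the same 12 arrays and are a description.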
